A study of Mus musculus with 16 samples.

Results

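The genes described here are 6 at 3 loci of mouse chromosome 6: Peg10 and Sgce, Mest and Copg2, and Nap1l5 and Herc3. They were chosen by symbol, 2 per locus, and are 6 of the 50600 genes counted. All 6 were matched to 1 Ensembl identifier each and all 6 were measured in the 12 clones, although Mest in 1 clone and Nap1l5 in 3 clones had too few reads for an allelic ratio. The cells were F1 hybrids whose mother was of the 129 strain and whose father was of the Cast strain, so that a read over a sequence difference between the strains could be given to its parental allele. Since the Cast allele was the paternal one in every clone, an effect of the parent and an effect of the strain cannot be told apart.

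The clones were neural progenitor cells (NPCs), each grown from 1 colony after differentiation of embryonic stem (ES) cells, or astrocytes made from such clonal NPC lines with BMP4 and FGF2. Astrocytes came from the 3 female clones Astro_129, Astro_C2 and Astro_G4 and the 2 male clones Astro_mC3 and Astro_mE6. NPC libraries from poly(A)-enriched RNA came from the female clone NPC_F5 and the male clones NPC_mG2 and NPC_mG6. The 4 male NPC clones Ch3, Ch5, Ch7 and Ch8 had 2 libraries each, made after ribosomal RNA depletion. No clone carried an engineered allele in the labels, and no untreated or uncloned control was among the samples. Female and male clones each descend from 1 ES cell line, so sex and ES cell line cannot be told apart.

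The libraries held 20871111 to 105892734 counted reads, of which 18.9 to 34.8% could be given to an allele. Nes, Vim and Fabp7 were present in all NPC clones, Gfap ranged from 65.3 to 1912 counts per 1000000 reads (CPM) in astrocytes against 0.447 to 3.5 in NPCs, and the cycling marker Mki67 was at most 2.29 CPM in astrocytes against at least 194 in NPCs. The astrocyte marker Aldh1l1 went against the label, with 2.48 to 11.5 CPM in astrocytes and 14.1 to 23.2 in the poly(A) NPC clones. In the same groups Aqp4 was higher in astrocytes (15.9 to 127 against 0.527 to 3.66). S100b (39.3 to 563 against 12 to 66) and Slc1a3 (578 to 2642 against 748 to 1318) overlapped. Summed with Gfap, these astrocyte markers were at 820 to 3025 CPM against 835 to 1347. The ES cell markers Pou5f1, Nanog and Zfp42 summed to at most 2.04 CPM.

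At an imprinted locus the 2 parental copies carry different DNA methylation set in the germ line, and usually 1 of them is expressed. Peg10, a gene of retrotransposon origin needed in the placenta, and Sgce, which encodes epsilon-sarcoglycan, are expressed from the paternal copy in most mouse tissues and share a promoter region. Mest, a member of the alpha/beta-hydrolase family, is likewise paternally expressed and its maternal promoter is methylated. Copg2 encodes a subunit of the COPI vesicle coat and runs towards Mest on the other strand. Nap1l5, an intronless gene of the nucleosome assembly protein family, lies inside an intron of Herc3, a ubiquitin ligase gene, and is paternally expressed.

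On GRCm38, Sgce spans chr6:4674350-4747204 on the minus strand and Peg10 chr6:4747306-4760517 on the plus strand, with 102 bases between them. Mest spans chr6:30733506-30748466 on the plus strand and overlaps the end of Copg2, chr6:30747554-30896815 on the minus strand, by 913 bases. Nap1l5, chr6:58905233-58907126 on the minus strand, lies within Herc3, chr6:58831455-58920398 on the plus strand. Reads were counted by strand, so reads of overlapping partners on opposite strands were counted apart.

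Promoter windows of 300 bases, from 250 before to 50 after an annotated start, were taken from RefSeq (GRCm38.p6) for 4 of the 6 genes, and 1 window is shown for each because imprinted promoters are where parental methylation differs. Peg10 and Sgce are named only. Capitals mark the hexamer TGCCGC or its reverse complement GCGGCA, the core letters bound by ZFP57, a protein that protects germ-line methylation marks. The hexamer was found on either strand in 11.7% of 32544 RefSeq windows of this length. The windows of Mest (at a start within the gene) and Nap1l5 hold it 2 times each and 17 CpG each, the window at the first Mest start (chr6:30733256-30733555) holds none with 8 CpG, that of Copg2 holds it 1 time with 25 CpG, and that of Herc3 holds none with 4 CpG. A match is a description of letters and not a measured site.
Mest, chr6:30737800-30738099, plus strand: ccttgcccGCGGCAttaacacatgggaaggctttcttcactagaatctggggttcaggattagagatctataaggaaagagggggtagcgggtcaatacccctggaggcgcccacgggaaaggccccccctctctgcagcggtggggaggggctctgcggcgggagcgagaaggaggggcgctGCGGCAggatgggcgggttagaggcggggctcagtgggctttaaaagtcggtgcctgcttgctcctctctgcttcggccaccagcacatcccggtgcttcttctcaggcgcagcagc
Nap1l5, chr6:58907077-58907376, minus strand: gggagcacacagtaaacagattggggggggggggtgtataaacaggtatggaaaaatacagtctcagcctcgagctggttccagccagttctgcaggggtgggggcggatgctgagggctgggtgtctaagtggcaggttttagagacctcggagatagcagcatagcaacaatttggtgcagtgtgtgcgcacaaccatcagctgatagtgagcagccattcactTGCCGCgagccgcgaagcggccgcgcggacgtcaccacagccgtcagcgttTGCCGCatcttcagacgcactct
Copg2, chr6:30896745-30897044, minus strand: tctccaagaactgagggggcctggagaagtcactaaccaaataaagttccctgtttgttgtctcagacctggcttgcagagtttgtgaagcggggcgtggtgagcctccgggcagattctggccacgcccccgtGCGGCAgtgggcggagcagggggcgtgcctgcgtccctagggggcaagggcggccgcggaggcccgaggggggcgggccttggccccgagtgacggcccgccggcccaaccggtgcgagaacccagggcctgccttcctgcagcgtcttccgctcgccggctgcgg
Herc3, chr6:58833450-58833749, plus strand, a start inside the gene: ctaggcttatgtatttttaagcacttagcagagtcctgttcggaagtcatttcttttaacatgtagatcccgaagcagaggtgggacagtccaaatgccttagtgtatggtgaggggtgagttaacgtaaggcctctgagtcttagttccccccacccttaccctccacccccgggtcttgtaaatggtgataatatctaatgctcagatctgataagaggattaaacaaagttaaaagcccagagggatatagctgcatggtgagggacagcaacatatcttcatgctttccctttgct

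The first question was which parental copy each clone used at each locus. The allelic ratio is given as the percentage of allele-specific reads from Cast, for genes with at least 20 such reads. A ratio under 15% or over 85% is called monoallelic, 35 to 65% biallelic, and the rest biased. Ranges in parentheses after a ratio are Wilson intervals at 95%. They hold only the counting error, since reads without molecular identifiers are not independent molecules.

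Peg10 was expressed from Cast alone in 5 of 12 clones, was biallelic in 3 and biased towards Cast in 4. In male poly(A) clones the Cast share was 99.61% in Astro_mC3, 99.96% in Astro_mE6, 99.86% in NPC_mG2 and 99.84% in NPC_mG6. In the female clones it was 51.1% (50.3 to 51.8) in Astro_129, 64.8% (64.5 to 65.1) in Astro_C2, 62.2% (61.6 to 62.9) in Astro_G4 and 72.7% (72.4 to 73.1) in NPC_F5. The maternal 129 copy thus gave at least 27.3% of reads in the 4 female clones and at most 0.393% in the 4 male poly(A) clones. Among the male Ch clones, Ch3 was at 99.88% (99.82 to 99.92), whereas Ch5 was at 81.6% (81.1 to 82.1), Ch7 at 82.3% (81.7 to 82.8) and Ch8 at 79.5% (79 to 80.1). The male clones as a whole thus hold both states, and the lowest of them, Ch8, still lay above the highest female clone.

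Sgce followed Peg10 in most clones but not in all. It was above 97% Cast in Astro_mC3, Astro_mE6, Ch3, NPC_mG2 and NPC_mG6, where Peg10 was also Cast only. It was biallelic in Astro_C2 (52.5%), NPC_F5 (55.4%), Ch5 (55%), Ch7 (62.8%) and Ch8 (56.3%), and in each of these Peg10 leaned further towards Cast. In Astro_129 the neighbours were apart, with Sgce almost wholly from 129 at 6.21% Cast (5.02 to 7.65, 1305 reads) and Peg10 biallelic. In Astro_G4 they were apart in the other direction, with Sgce at 91.9% Cast (90.6 to 93.1, 1888 reads) and Peg10 at 62.2%. Over the 12 clones the Cast share of Peg10 was higher than that of Sgce in 11, by a mean of 9.8 ± 18.6 percentage points (SD, n = 12), and a two-sided exact sign-flip permutation test gave p = 0.0933. Without 1 clone the mean ran from 6.61 points (exact p = 0.187, without Astro_129) to 13.4 points (without Astro_G4, the only clone of the opposite sign, whose removal fixes the exact p at the smallest that 11 pairs allow, 0.000977). The comparison was chosen after the ratios were seen.

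Mest was expressed from Cast alone in 8 of the 11 clones with reads, at 98.4% in Astro_mC3 and from 99.85 to 100% in the other 7. These 8 were all the male clones. Astro_C2 used the maternal copy alone, with 1 Cast read and 1230 reads of 129. Astro_G4 was biallelic at 47.9% Cast (46.1 to 49.6) and NPC_F5 at 55.2% (54.8 to 55.5, 76045 reads). In Astro_129 Mest had 10 reads in all, 2 of them allele-specific and both from 129, so its ratio was not determined.

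Nap1l5 was Cast only in 6 of 9 clones with reads, at 98.7% in Astro_mC3, 99.56% in NPC_mG2 and 98 to 100% in the Ch clones on 98 to 159 reads each. It was biallelic in Astro_C2, at 46.5% Cast (43.7 to 49.2), and in NPC_mG6, at 47% (44.2 to 49.8). Astro_G4 used the maternal copy, with 2 Cast reads and 381 of 129. In Astro_129, Astro_mE6 and NPC_F5 there were 3 reads of Nap1l5 in each library and none was allele-specific, so the gene was at the detection floor of 3 counts from both copies.

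Copg2 and Herc3 were expressed from both copies in every clone. Herc3 lay between 45 and 55.1% Cast in all 12, including the clones where Nap1l5 inside it was monoallelic or not detected. Copg2 ranged from 29.4 to 55.7%. Its Cast share was 46.7 to 55.7% in the 5 astrocyte clones, where Mest was low, and 52.9% (49.2 to 56.5) in NPC_F5, where Mest was high from both copies. In the 6 NPC clones where Mest was high from Cast alone, Copg2 leaned to 129. It was at 32.6% Cast (29.8 to 35.6) in NPC_mG2, 37.2% (34.6 to 39.8) in NPC_mG6 and 29.4 to 32.6% in the Ch clones. These 6 were also all the male NPC clones, so the state of Mest cannot be told apart from cell type and sex together. A link between Mest and Copg2 was not tested.

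**Figure D1:**
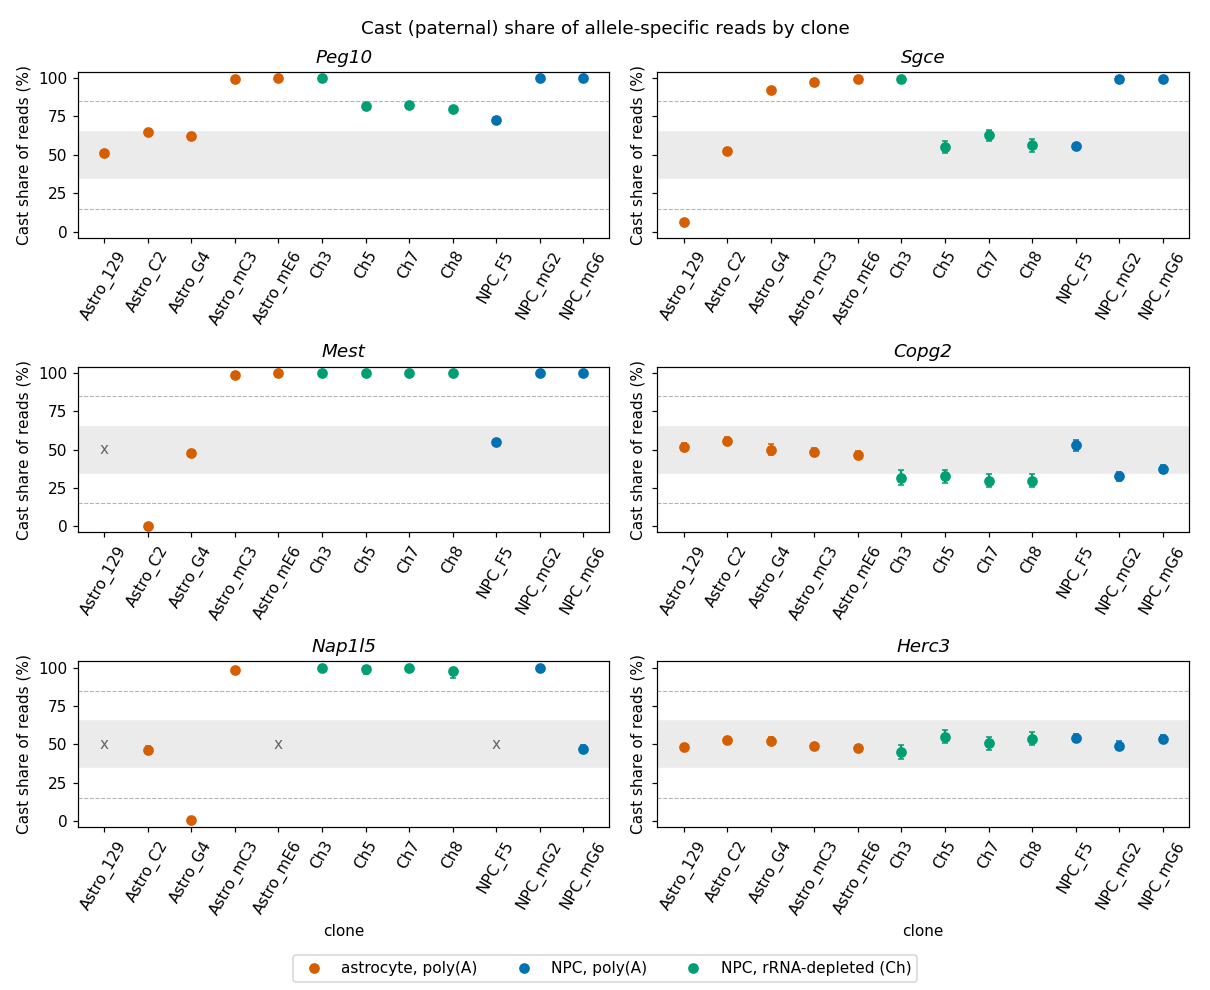
Cast share of allele-specific reads (%, y axis) of the 6 genes in the 12 clones (x axis), with 95% Wilson intervals. Grey bands mark 35 to 65%, dashed lines mark 15 and 85%, and x marks under 20 reads. Peg10, Sgce, Mest and Nap1l5 move between 100% and lower values in different clones, and Herc3 stays between 45 and 55.1%.

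The 3 loci were not in the same state in every clone. A departure from Cast-only expression was seen at Peg10 in 7 of 12 clones, at Mest in 3 of 11 and at Nap1l5 in 3 of 9. The 3 departures at Mest were all in female clones that also departed at Peg10. Whether departures at the 3 loci fell in the same clones more often than by chance was not tested. Astro_C2 and Astro_G4 departed at all 3 loci, NPC_F5 at Peg10 and Mest with Nap1l5 not detected, and Astro_mC3, Ch3 and NPC_mG2 at none of the 3. Ch5, Ch7 and Ch8 departed at Peg10 alone, with Mest and Nap1l5 Cast only. Their Cast shares of Peg10 were alike, at 79.5 to 82.3%, and whether these are separate departures was not tested. NPC_mG6 departed at Nap1l5 alone, with Peg10 at 99.84% and Mest at 99.9%. Even in Astro_C2 and Astro_G4 the states were not alike: Astro_C2 had 129-only Mest and biallelic Nap1l5, Astro_G4 biallelic Mest and 129-only Nap1l5.

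Cast reads were set against 129 reads over the 12 clones with edgeR's quasi-likelihood test, with clone as a block. Of the 6 genes, 2 passed an adjusted p of 0.05, against 15.4% of 14255 genes called with more Cast reads and 25.2% called with more 129 reads. Mest was higher from Cast, with a log2 ratio of 7.98 (SE 2.53, adjusted p = 0.0237). Copg2 was higher from 129, with a log2 ratio of -0.51 (SE 0.17, adjusted p = 0.0317). Peg10 had 3.84 (SE 1.45, adjusted p = 0.0505), Nap1l5 4.51 (SE 1.97, adjusted p = 0.0986), Sgce 2.83 (SE 1.32, adjusted p = 0.108) and Herc3 0.06 (SE 0.05, adjusted p = 0.433). The balance of calls depends on scaling. With each allele scaled by its own total, the median over all genes moved from -0.07 to 0.15 and 4859 genes were called higher from Cast and 1677 from 129, against 2189 and 3596. Copg2 was then at -0.30 (adjusted p = 0.142), Herc3 was called at 0.27 (adjusted p = 0.000323), Peg10 was called at 4.02 (adjusted p = 0.0392) and Mest stayed called at 8.24 (adjusted p = 0.0186).

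Within the Ch clones alone Mest had a log2 ratio of 10.30 (adjusted p = 8.16e-05) and Copg2 -1.17 (adjusted p = 0.000331). Within the poly(A) NPC clones alone the values were 8.86 (adjusted p = 0.271) and -0.55 (adjusted p = 0.292), and within the astrocytes 1.61 (adjusted p = 0.801) and 0.03 (adjusted p = 0.838). The Mest call was lost without any of Ch3, Ch5, Ch7, Ch8, NPC_mG2, NPC_mG6 or Astro_mE6, and the Copg2 call without any of these but Astro_mE6, with log2 ratios of 7.4 to 8.6 and -0.59 to -0.44 over all clones left out in turn.

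The share of Cast reads at each gene was next compared between astrocytes and poly(A) NPCs, by an allele by cell type term. None of the 6 genes passed, against 0.379% of 13732 genes called in either direction, and 0 of the 6 had an unadjusted p under 0.05 in edgeR, the only tool run here. Copg2 came nearest, with a log2 difference of 0.58 (SE 0.27, adjusted p = 0.464).

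Female and male poly(A) clones were then compared by an allele by sex term, a test chosen after the ratios were seen. Only Peg10 of the 6 genes passed, with a log2 difference in the Cast to 129 ratio of -8.28 (SE 0.69, adjusted p = 0.00109), and 0.124% of 13732 genes were called with a lower Cast share in females. It passed in all fits that left out 1 clone, from -9 to -7.67. Mest (-10.70, SE 2.45, adjusted p = 0.136) and Sgce (-6.65, SE 1.77, adjusted p = 0.238) had the same sign and did not pass. Nor did Nap1l5 (-8.89, SE 5.28, adjusted p = 0.888, -13.27 to -2.89 without 1 clone), Copg2 with the opposite sign (0.56, SE 0.19, adjusted p = 0.404) or Herc3 (0.17, SE 0.09, adjusted p = 0.795). Of the 320 genes called with a higher Cast share in females, 282 were on the X chromosome, of which the male clones hold only the maternal copy.

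The Ch clones had 2 libraries each, so states could be compared with the spread between libraries. The methods of the study speak of biological replicates but do not say whether the libraries of a clone came from separate cultures, so the p-values measure only the spread between these libraries. The Cast share of Peg10 was 99.91 and 99.86% in the libraries of Ch3, 81.4 and 82% in Ch5, 82.4 and 82.1% in Ch7, and 79.8 and 79.2% in Ch8. That of Sgce was 100 and 99.3% in Ch3, 55.9 and 53.9% in Ch5, 66.3 and 59.1% in Ch7, and 54 and 58.4% in Ch8. Libraries of a clone lay close together, and both Ch3 libraries stood above all 6 others for both genes.

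The clone by allele test called Peg10 and Sgce and none of the other 4 genes, against 9.28% of 11256 genes called. The adjusted p was 9.93e-39 for Sgce, and for Peg10 it lay below the smallest number the software stores. Ch3 against the mean of the other clones differed by 7.57 (SE 0.10) in the log2 Cast to 129 ratio of Peg10 and by 7.21 (SE 0.53) in that of Sgce. The Sgce value rests on 0 and 1 reads of 129 in the Ch3 libraries and ran from 6.47 to 9.69 without 1 library. Mest (adjusted p = 0.383) and Nap1l5 (adjusted p = 0.59), both Cast only in all 8 libraries, did not pass, nor did Copg2 (adjusted p = 0.97) or Herc3 (adjusted p = 0.435).

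The next question was whether the total level differed between clones that did and did not use the maternal copy. Levels are CPM with TMM scaling within a preparation. Sgce was at 23.1 and 21.8 CPM in the libraries of Ch3, 44.7 and 42.6 in Ch5, 38.3 and 43.9 in Ch7, and 37.2 and 41.9 in Ch8. The Ch3 libraries were the lowest and did not overlap the others, but the share of all genes with this pattern is not given here. Among the Ch clones only Ch3 was Cast only at Peg10 and Sgce. Its allelic state and other differences of that clone cannot be told apart, and its libraries are not replicates of the state. Sgce was the only 1 of the 6 genes called among the Ch clones (adjusted p = 0.000409), where 16.6% of 17095 genes were called. It was lower in Ch3 than in the mean of the others by 1.82-fold (log2 -0.86, SE 0.09, adjusted p = 9.74e-05), a contrast in which 6.79% of genes were called lower. In Ch5 it was higher than in the mean of the others (log2 0.39, SE 0.08, adjusted p = 0.0216), where 2.03% were called higher, and this call was lost without library 2 of Ch3 or without any library of Ch5 or library 1 of Ch7.

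Peg10, whose 129 share in Ch5, Ch7 and Ch8 was 18.4, 17.7 and 20.5% against 45, 37.2 and 43.7% for Sgce, did not pass for the total level. It was at 1749 and 1788 CPM in Ch3, 1834 and 1492 in Ch5, 1419 and 1349 in Ch7, and 2088 and 1450 in Ch8. The groups overlapped, and Ch3 differed from the mean of the others by log2 0.17 (SE 0.13, adjusted p = 0.47). Over the 4 clones Peg10 had an adjusted p of 0.334, but it passed without a filter on low counts (adjusted p = 0.00641) and without library 2 of Ch8 (adjusted p = 0.0277). Whether Peg10 and Sgce differ in this respect was not tested.

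Reads of each allele were therefore taken apart, in tests chosen after the totals were seen. Per allele, levels are allele-specific reads over all counted reads of the library, in CPM with the same TMM scaling. The Cast copy of Peg10 had 425 and 449 CPM in Ch3, 392 and 298 in Ch5, 282 and 275 in Ch7, and 415 and 282 in Ch8. The 129 copy had 0.399 and 0.623 CPM in Ch3 and 59.9 to 105 in the other 6 libraries. The Cast copy of Peg10 was higher in Ch3 (log2 0.46, SE 0.12, adjusted p = 0.00847), where 4.87% of 9999 genes were called higher, and the 129 copy was lower (log2 -7.11, SE 0.23, adjusted p = 5.34e-19), where 5.62% of 10371 genes were called lower.

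The Cast copy of Sgce had 5.68 and 4.81 CPM in Ch3 and 5.32 to 7.52 in the others, and did not pass (log2 -0.28, SE 0.14, adjusted p = 0.221). The 129 copy had 0 and 0.0346 CPM in Ch3, which is 0 and 1 reads, and 3.83 to 5.15 in the others. The 129 copy of Sgce also passed as lower in Ch3 (adjusted p = 3.11e-13).

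**Figure D2:**
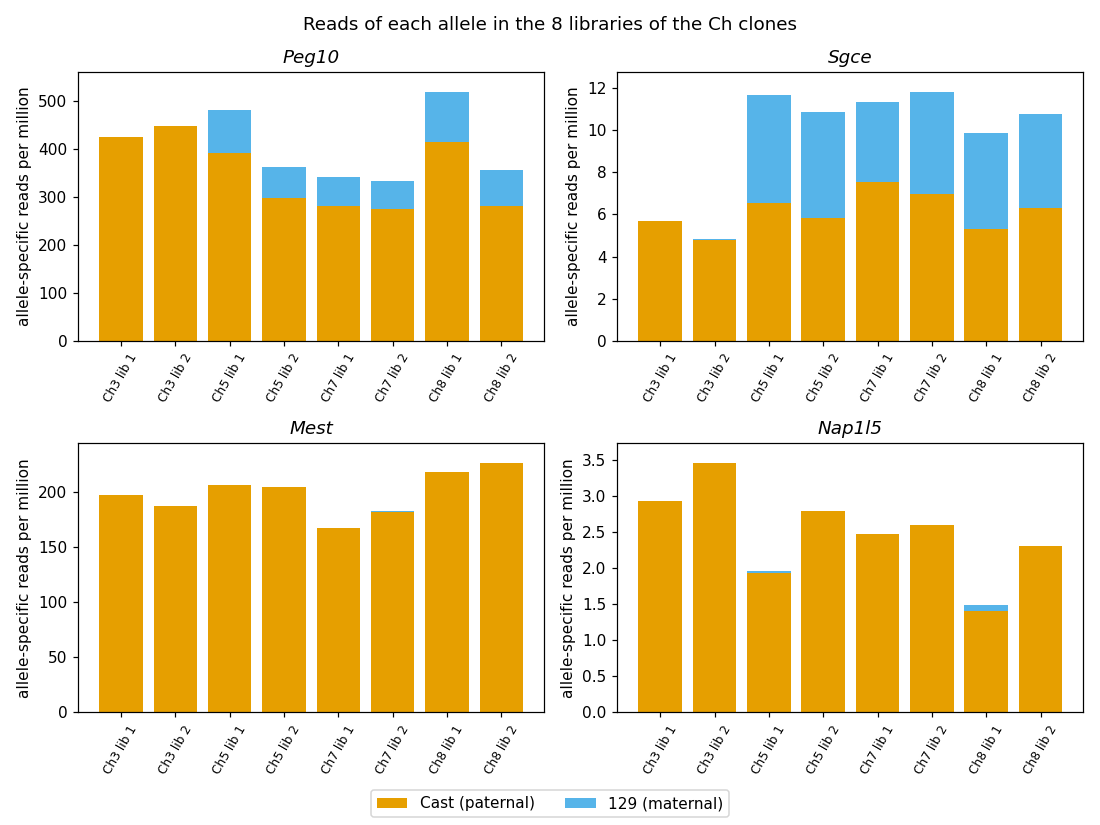
Cast (orange) and 129 (blue) CPM (y axis) of 4 genes in the 8 Ch libraries (x axis, 2 per clone), as stacked bars without error bars. Sgce has a blue part of 3.83 to 5.15 in Ch5, Ch7 and Ch8 on top of a like Cast part, Peg10 a blue part of 59.9 to 105, and Mest and Nap1l5 are almost wholly orange in all clones.

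In the poly(A) clones each state came in few clones, and the values below are a description with no test. Among poly(A) NPCs, Mest had 408 CPM from Cast and 331 from 129 in the biallelic NPC_F5, against 373 CPM from Cast in NPC_mG2 and 127 in NPC_mG6. Its total was 3784 CPM in NPC_F5, 1971 in NPC_mG2 and 763 in NPC_mG6. Among astrocytes, Mest had 16.2 CPM of 129 in Astro_C2, 17.9 of Cast in Astro_mC3, 13.8 of Cast in Astro_mE6, and 18.6 of Cast beside 20.3 of 129 in the biallelic Astro_G4. The total was 201 CPM in Astro_G4 and 69.5 to 94.6 in the other 3 expressing clones. In both cell types the clone with both copies in use had the highest total, and each copy in use in astrocytes gave 13.8 to 20.3 CPM.

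Nap1l5 showed a like order. The clones with both copies in use were at 182 CPM (Astro_C2) and 187 CPM (NPC_mG6), and those with 1 copy in use were at 108 (Astro_mC3), 77.5 (NPC_mG2) and 51.6 (Astro_G4, from 129). Per copy the values were 7.79 CPM of Cast and 8.98 of 129 in Astro_C2, 7.13 and 8.04 in NPC_mG6, 7.81 of Cast in Astro_mC3, 6.18 of Cast in NPC_mG2 and 4.86 of 129 in Astro_G4.

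Sgce was at 150 CPM in Astro_C2 and 135 in NPC_F5, the 2 biallelic poly(A) clones, and at 48.4 to 96.3 in the other 6. Its lowest value, 48.4, was that of Astro_129, the clone using the 129 copy. Peg10 did not sort in this way. Its totals were 477 CPM in Astro_129, 3681 in Astro_C2 and 918 in Astro_G4 and 1880 in NPC_F5, all with both copies in use, and 808 in Astro_mC3, 152 in Astro_mE6, 1086 in NPC_mG2 and 2677 in NPC_mG6 with Cast alone.

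**Figure D3:**
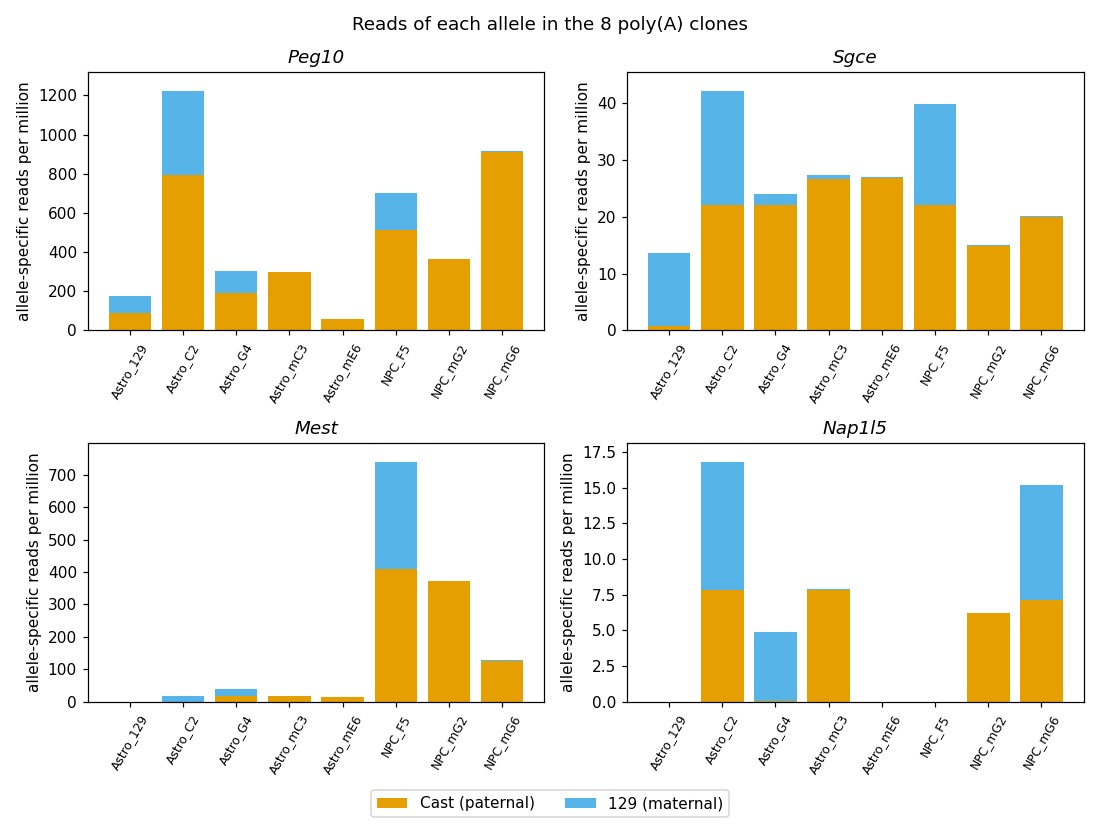
Cast (orange) and 129 (blue) CPM (y axis) of 4 genes in the 8 poly(A) clones (x axis, 1 library each), as stacked bars without error bars. Nap1l5 has bars of 2 colours in Astro_C2 and NPC_mG6 and none in Astro_129, Astro_mE6 and NPC_F5, while Peg10 varies from 56.8 CPM of Cast in Astro_mE6 to 913 in NPC_mG6.

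Between astrocytes and poly(A) NPCs, 2 of the 6 genes differed in level. In that contrast 13% of 18192 genes were called higher and 12.6% lower in astrocytes. None of these clones was measured as both NPC and astrocyte, so these are differences between clones and not changes within a clone. Mest was lower in astrocytes by 4.54 on the log2 scale (SE 1.37, adjusted p = 0.0414). It had 0.104, 69.5, 83.1, 94.6 and 201 CPM in astrocytes and 763, 1971 and 3784 in NPCs. The groups did not overlap. Herc3 was higher in astrocytes by 1.05 (SE 0.29, adjusted p = 0.0288). It was at 29.9 to 39.4 CPM in NPCs and 42.3 to 95.3 in astrocytes, again without overlap. The share of all genes whose groups did not overlap is not given here, so the lack of overlap adds nothing to the calls. Both calls were lost when Astro_C2, Astro_mC3, Astro_mE6 or any of the 3 NPC clones was left out, and that of Mest also without Astro_G4 or with sex as a covariate (adjusted p = 0.0518), while without Astro_129 Mest was at -4.22 (SE 0.61, adjusted p = 0.00326).

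Peg10 (log2 -0.61, SE 0.85, adjusted p = 0.639), Sgce (0.17, SE 0.37, adjusted p = 0.775), Copg2 (0.54, SE 0.32, adjusted p = 0.241) and Nap1l5 (-0.36, SE 2.22, adjusted p = 0.926) did not pass. With sex as a covariate, Copg2 was called higher in astrocytes (log2 0.77, SE 0.20, adjusted p = 0.0298). The spread over clones was wide for these genes, with 1207 ± 1415 CPM for Peg10 (SD, n = 5) in astrocytes and 1881 ± 796 (SD, n = 3) in poly(A) NPCs, and 68.3 ± 77.6 and 88.1 ± 93.7 for Nap1l5. In the Ch clones levels were closer, at 1524 ± 144 CPM for Mest, 1646 ± 182 for Peg10 and 23.3 ± 2 for Nap1l5 (SD, n = 4 clones). The Ch libraries were prepared differently, so their levels were not tested against the others.

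**Figure D4:**
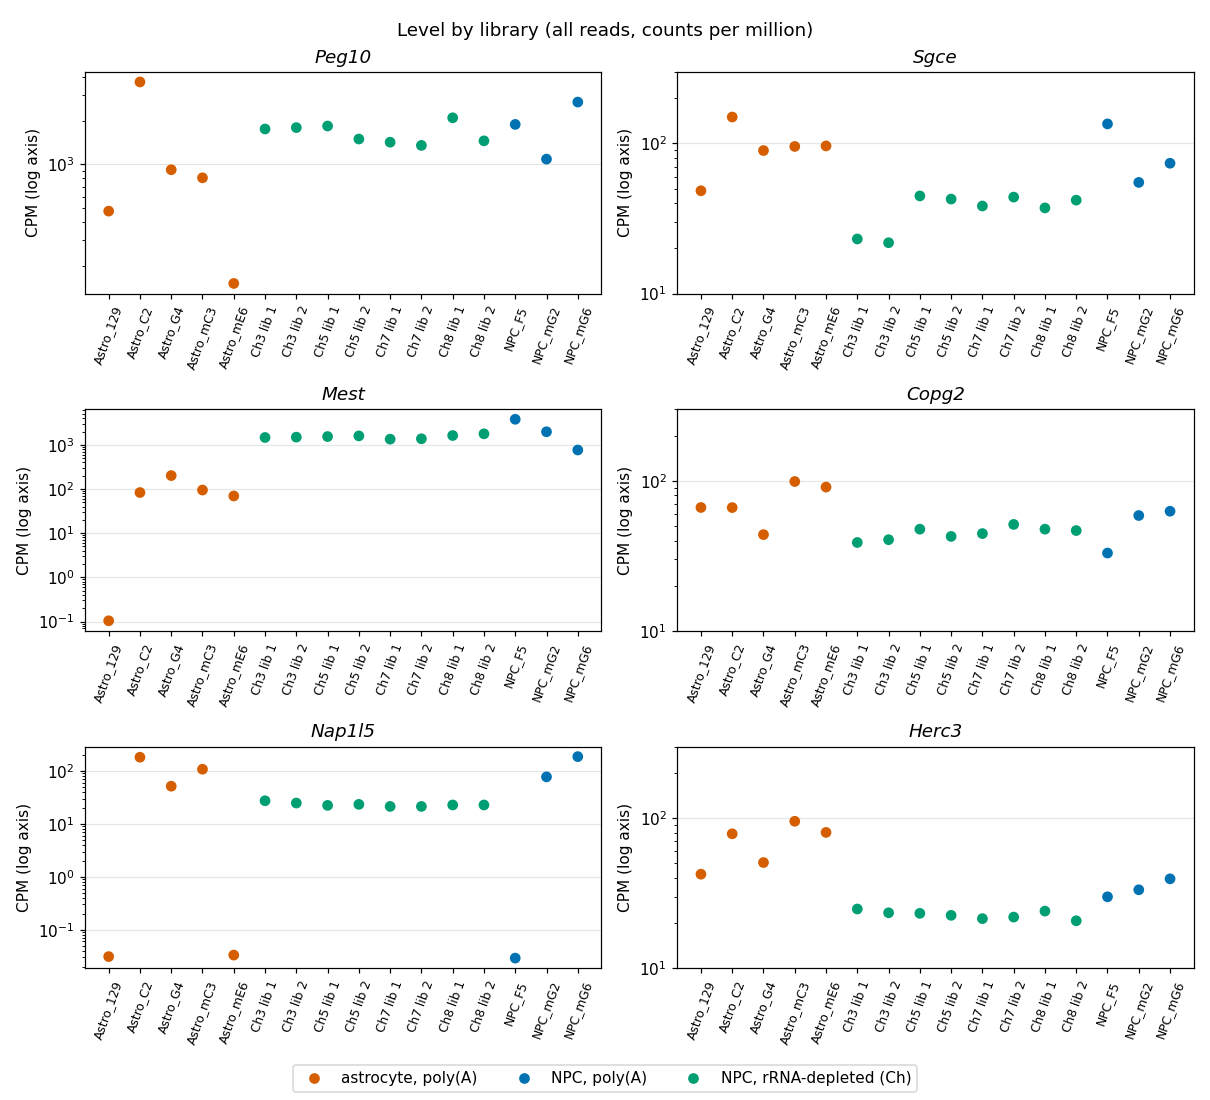
Level of the 6 genes (CPM, log y axis) in each of the 16 libraries (x axis). Mest is lower in astrocytes than in NPCs and Nap1l5 is near 0.03 CPM in Astro_129, Astro_mE6 and NPC_F5, while Sgce is lower in the libraries of Ch3 (23.1 and 21.8) than in those of the other Ch clones.

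Markers of cell types and of cycling were looked at over the same contrast. The NPC markers Nes, Sox2, Fabp7, Vim and Olig2 summed to 1269 to 2400 CPM in astrocytes and 4589 to 6274 in poly(A) NPCs, and Mki67 with Top2a to 3.81 to 13.5 against 865 to 1002. The neuronal markers Rbfox3, Snap25 and Syt1 summed to 11.1 to 20.3 against 2.71 to 5.3, although Rbfox3 alone was at 0.0415 to 0.689 against 0.122 to 3.69. The fibroblast markers Col1a1, Col1a2 and Postn summed to 2.5 to 212 against 0.525 to 0.929, nearly all from Col1a1. The oligodendrocyte markers Mbp and Mog summed to 0.0415 to 0.253 against 0.117 to 0.67, with Mog at 0.0291 CPM or less. Their part in the differences of Mest and Herc3 was not tested. In bulk RNA, fewer cells of a type and less RNA per cell cannot be told apart.

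A list of 8 genes known to set or keep imprints was looked at in the same fits, from a list chosen with earlier results known. Of the 8, 3 were lower in astrocytes than in poly(A) NPCs and none was higher, where 12.6% of all genes were called lower and 13% higher, and the median log2 difference of the 8 was -0.36 against 0.08 over all genes. Uhrf1, which brings DNMT1 to newly copied DNA, was lower by 4.82 (SE 0.26, adjusted p = 2.56e-05). It was at 105 to 164 CPM in poly(A) NPCs and 3.15 to 5.77 in astrocytes. Dnmt1, the maintenance DNA methyltransferase, was lower by 1.40 (SE 0.28, adjusted p = 0.00957), and Trim28, the corepressor recruited by ZFP57, by 0.89 (SE 0.23, adjusted p = 0.025). In the same contrast Mki67 was at most 2.29 CPM in astrocytes and at least 443 in poly(A) NPCs. The part of cell cycling in these differences was not tested, nor was a link to the allelic states.

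Among the Ch clones, 2 of the 8 differed in level, near the 16.6% of all genes called. Zfp57 was lowest in Ch3, the clone with Cast-only Peg10 and Sgce, with 5.85 CPM against 8.74 in Ch5, 11.8 in Ch7 and 10.8 in Ch8 (adjusted p = 0.00534 over the 4 clones). In astrocytes Zfp57 ran from 0.421 to 33.9 CPM. It had 38 reads in Astro_mE6 and 469 in Astro_mC3, where Peg10 was Cast only. It had 3268 in Astro_129, 652 in Astro_C2 and 640 in Astro_G4, where Peg10 was biallelic. In the poly(A) NPC clones Zfp57 ran from 6.59 to 15.2 CPM. A link between Zfp57 level and allelic state was not tested. Trim28 was at 225 CPM in Ch3, 227 in Ch5, 299 in Ch7 and 325 in Ch8 (adjusted p = 0.0103). Dnmt3a, a de novo DNA methyltransferase, was the 1 of 7 tested whose allelic ratio differed, where 9.28% of all genes were called. It was biallelic in Ch3, at 47.8% Cast (45.6 to 50), and Cast only in Ch5 (99.85%), Ch7 (99.66%) and Ch8 (99.86%), while its total did not pass (adjusted p = 0.333). In the 8 poly(A) clones, where Peg10 was Cast only in the male ones and not in the female ones, Dnmt3a was between 47 and 50.9% Cast. A link between the ratios of Dnmt3a and Peg10 was not tested.

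The allelic ratios of genes around the loci were looked at next. Over chromosome 6 the median Cast share was 48.8 to 49.9% in each of the 12 clones over 473 to 543 genes. Within 10 Mb on either side of each locus the median was 45.2 to 53% around Peg10, 49.1 to 49.9% around Mest and 48 to 51.3% around Nap1l5. Up to 3 genes on each side of each locus with reads in at least 9 clones were taken, 17 in all. Of their 198 values, 156 were biallelic and 29 monoallelic. The biallelic share was 65.2% around Peg10 and Sgce, 85.5% around Mest and Copg2 and 86.7% around Nap1l5 and Herc3. The share over all genes is not given here. Whether neighbours that varied did so in the same clones as the members was not tested.

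Casd1, which lies 30995 bases from Sgce, was at 45.9 to 52.1% Cast in all 12 clones, and Ppp1r9a, on the far side of Peg10, at 45.7 to 59.9%. Bet1 was at 36.9 to 51.8%. Pon2, 504103 bases beyond the pair and reported as maternally expressed in some tissues, was monoallelic from 129 in all 12 clones, at 0.163 to 9.15% Cast, including those where Peg10 was biallelic. Next to Mest and Copg2, Zc3hc1, Klhdc10, Tmem209 and Mkln1 were biallelic in all 12 clones, between 40.5 and 54.6% Cast. Gm13835 was at most 2.78% Cast in its 9 clones and 2210408F21Rik was biallelic in 11 of 12.

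Fam13a, 13138 bases from Herc3, was biallelic in 10 of 12 clones with a range of 23.1 to 97.9% Cast, and Lancl2, Vopp1 and Tigd2 were biallelic in all 12. Abcg2 was at 18.9 to 41.9%. Further out at the first locus, Samd9l (20 to 95.2%) and Slc25a13 (8 clones biallelic and 4 monoallelic) varied from clone to clone. Of 14 other genes reported as imprinted near these loci, 12 were matched in the files, and only Ppp1r9a, Pon2, Casd1 and Bet1 had reads in at least 9 clones.

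**Figure D5:**
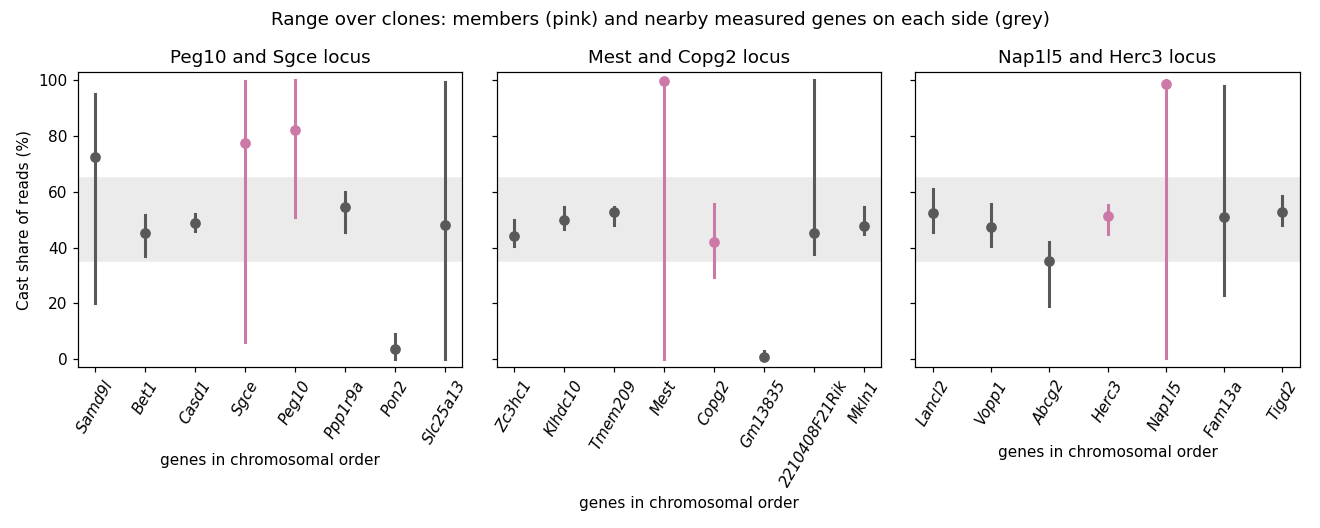
Lowest, median (point) and highest Cast share (%, y axis) over clones with at least 20 reads, for genes in chromosomal order (x axis) around each locus. The pink lines are the members, and the grey lines are neighbours, of which Casd1, Ppp1r9a, Klhdc10, Tmem209 and Tigd2 stay between 45.7 and 59.9%.

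Imprinted genes elsewhere also differed in state between clones. Of 20 paternally expressed genes, 11 had reads in at least 9 clones and 10 of these fell in more than 1 class, as did 48% of all 11448 genes with reads in at least 9 clones. A gene can do so by crossing a limit by little, as Mkrn3 did. Peg3 ran from 47.3 to 100% Cast and was Cast only in 7 clones, Usp29 from 41 to 100%, Snrpn from 52.8 to 100%, Airn from 0.232 to 100%, Ndn from 4.35 to 100% and Plagl1 from 0 to 100%. Peg12 (48 to 100%) and Mcts2 (44.2 to 86.7%) were biallelic in 9 of 12 clones each, Mkrn3 (34.2 to 53.9%) in 11 of 12 and Sfmbt2 (32.5 to 82.7%) in 7 of 11. Zrsr1, the other of the 11, was biallelic in all 12. Of the maternally expressed genes with reads in at least 9 clones, Igf2r ran from 4.81 to 83.1% and Zim1 from 9.52 to 92.3%, while Trappc9 was biallelic in all 12, at 44.3 to 48.7%.

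The genes whose ratio over the clones was most like that of a member were taken from 5299 genes, or 5106 for Mest, with at least 10 shared clones and an SD of at least 5 points. For Peg10 they were Loxl2 (r = 0.901, 10 clones), Sec14l2 (r = 0.874, 12 clones) and Tmem186 (r = 0.868, 12 clones), and Peg10 and Sgce had r = 0.809. For Mest they were Megf6 (r = 0.926, 10 clones), Sash1 (r = 0.919) and Tmem186 (r = 0.913, 11 clones). For Sgce they were Lrba (r = 0.845), Bsn (r = 0.838) and Myadm (r = 0.832), and for Copg2 Serpine2 (r = 0.95), Tmem176b (r = 0.941) and Myrip (r = 0.923). Mest and Copg2 had r = -0.755 and Mest and Peg10 had r = 0.777, each over 11 clones. These are descriptions over few clones that share 2 ES cell lines and 2 preparations, with 3 taken from all genes compared.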

How the data were processed

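RNA-seq of 12 clones in 16 libraries was used. Per the paper's methods and the labels, the authors aligned reads to mouse GRCm38 masked at strain differences with TopHat (2.1.0) and Bowtie2, split them by allele with SNPsplit, and counted read pairs per gene by strand with featureCounts (1.5.1). The annotation version is not given in the sources used here. The deposited counts give Cast, 129 and all reads per gene without normalization. A Cast share per gene was deposited as a fraction and was not used. Of 50600 genes, 32722 were given a symbol and 23349 a RefSeq position.

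For ratios, both libraries of each Ch clone were added up. Levels and ratios were tested with edgeR (4.0.16) quasi-likelihood fits over all genes with Benjamini-Hochberg adjustment at 0.05. The SE given with an edgeR value is the absolute log2 value over the square root of the test's F, not a fitted standard error. It is approximate where 1 allele has few reads. Level fits used filterByExpr and TMM, and fits of the 2 alleles took genes that reached 20 reads with an allele in 3 or more clones (or Ch libraries), a clone or library block, and the summed allele total as library size. Single-allele levels took genes that reached 20 reads in 2 or more libraries. DESeq2 (1.42.0) was an alternative, beside other filters, scalings and limits and leaving out each clone or library. Groups followed the labels. A neighbour and 2 listed markers are not reported here. Scripts were tested on simulated data. Named genes were the 6 genes, listed genes at the loci, up to 3 neighbours per side, listed imprinted and imprint-keeping genes, and the 3 most alike in ratio. The genes and lists were chosen with earlier results of these data known. Depth sets the Wilson intervals, and 3 counts were the detection floor. Library numbers did not pair the libraries of all Ch clones.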

Additional observations from a re-analysis of the deposited data

Results flagged for a closer look

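In the 11 sets of astrocyte values tested for an outlying clone, 1 stood out by Dixon's test. Chance flags about 1 set in 20, so 1 flag among 11 sets can come from chance. The value that stood out was the level of Peg10 in Astro_C2, at 3681 CPM against 152 to 918 in the other 4 astrocyte clones. The gap to the nearest clone was 0.783 of the whole range. The Cast share of Peg10 in that clone was 64.8% and its Sgce level, 150 CPM, was also the highest of the astrocytes.

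The Cast to 129 ratio of Peg10 differed between female and male poly(A) clones by the test of the difference itself (adjusted p = 0.00109, edgeR), with 51.1 to 72.73% Cast in 4 of 4 female clones and 99.6 to 99.96% in 4 of 4 male clones. Sex and ES cell line cannot be told apart here, and the male clones Ch5, Ch7 and Ch8 also used the maternal copy, at 18.4, 17.7 and 20.5% of reads.

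The allelic ratios of Peg10 and Sgce differed among the Ch clones by the clone by allele term. The adjusted p was 9.93e-39 for Sgce and was stored as 0 for Peg10, being too small for the software, and rests on 2 libraries per clone. Dnmt3a was biallelic in Ch3 and Cast only in Ch5, Ch7 and Ch8, the same division of the clones. Among the Ch clones 9.28% of 11256 genes differed in ratio, and in the poly(A) clones Dnmt3a was at 47 to 50.9% Cast. A link between Dnmt3a and Peg10 was not tested.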

How the results depend on the processing

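Of 373 log2 values of the 6 genes under alternatives, 324 kept their sign and their side of the threshold, 31 lost a call, 12 gained one and 6 changed sign. In the astrocyte clones alone the log2 ratio of Copg2 was 0.03 and that of Nap1l5 -0.19. Between astrocytes and NPCs, the level difference of Nap1l5 was 0.29 with sex as a covariate and -1.14 to 0.81 without 1 clone (0.81 without NPC_mG6), and that of Sgce was -0.08 to 0.58 (-0.08 without Astro_C2 or NPC_mG2). For Cast against 129, the number of the 6 genes called was 2, and 0 in the astrocyte clones alone, 0 in the poly(A) NPC clones alone and 5 with DESeq2. It ran from 0 to 4 when 1 clone was left out, with 4 without Astro_129 (Peg10 and Sgce joined) or Astro_G4 (Peg10 and Nap1l5 joined). All genes called numbered 5785, against 3588 in astrocytes alone and 1825 in poly(A) NPCs alone, where fewer clones entered, and 5236 to 5946 without 1 clone. For astrocytes against NPCs in level, 2 of the 6 genes were called, 0 to 2 without 1 library, and 2269 to 4849 genes. For the ratio, 52 genes were called, 0 with each allele scaled by its own total (the cause was not tested), and 2 to 57 without 1 clone, the lowest without NPC_F5, with 0 of the 6 genes in each.

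For levels among the Ch clones 1 of the 6 genes was called, 2 with no filter (Peg10 joined), 2 with DESeq2 (Mest joined), and 1 to 2 without 1 library, with 4361 genes called without a filter against 2834, and 1509 to 3244 without 1 library. Where a Ch clone kept 1 library, that library was assumed to vary like the other clones. For ratios among the Ch clones, 2 of the 6 were called, 2 to 3 without 1 library (Herc3 joined without library 1 of Ch3), 1576 genes with own allele totals against 1044, and 893 to 1159 without 1 library. Peg10 and Sgce were called in each of these. With library number as a replicate block, 3391 genes differed in level and 1037 in ratio. The numbers share no stated culture, and deviations of same-numbered libraries correlated between -0.349 and 0.413. The correlations were positive among Ch3, Ch5 and Ch8 and negative between Ch7 and each of them. The numbers thus do not pair the libraries of all Ch clones, and a batch numbered otherwise was not tested. Counts of monoallelic and biallelic values stayed within 1.5 times under all read minimums and limits. Low Nap1l5 reads in the Ch clones and 1 library per poly(A) clone limit what can be compared.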
